A study of Danio rerio with 6 samples.

Results

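The wild type macrophage libraries are the 3 libraries titled as wild type for cxcr3.2, out of 6 in the series. They were chosen by their titles alone, which match their labelled genotype. The cells came from zebrafish (Danio rerio) larvae that were homozygous wild type at cxcr3.2, a gene for a chemokine receptor, and carried mpeg1:mCherryF, a red fluorescent reporter under the mpeg1 promoter. The other 3 libraries come from cxcr3.2-/- larvae with the same reporter, and no comparison between the genotypes was made here. For each wild type library a separate pool of 150 to 200 larvae was dissociated, and the red cells were sorted by flow cytometry. The labels give the age as 6 days in the characteristics and as 5 days in the protocol, and they name no infection or treatment. A sort of this kind is meant to take cells in which the mpeg1 promoter is active, so that circulating, tissue-resident and brain macrophages may be pooled in each library. The make-up of the pools was not tested.

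Macrophages are phagocytes that engulf microbes and dying cells, digest them in acidic lysosomes and release signals that call in other leukocytes. In zebrafish larvae they arise from early blood-forming sites, patrol the tissues and settle in the brain as microglia, and they serve together with neutrophils as the main cellular defence before lymphocytes mature. The gene mpeg1 encodes perforin-2, a pore-forming protein of phagocytes, and its promoter is the usual driver of macrophage reporters in this species.

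Polyadenylated RNA was amplified from the sorted cells and read counts per gene were deposited. The counts summed to 8452301, 8390293 and 6239470 in replicates 1, 2 and 3. Levels are given as CPM, the reads of a gene in every 1000000 reads of its library, and as mean ± SD over the 3 libraries (n = 3), in the order of replicates 1, 2 and 3 where single values are listed. A CPM value is not divided by transcript length, so an order of genes by CPM is an order of read shares, in which a longer transcript draws more reads. Where several gene IDs share a symbol and none is printed, the ID with the most reads is meant. Neighbours in such an order are called separated where the lower gene was lower in all 3 libraries and the means differed by more than the larger SD. Of 31962 genes, 13837 reached at least 1 CPM in every library and are called detected, and 95 had a mean of at least 1000 CPM. The numbers of detected family members given below are to be read beside these 13837 of 31962. Each pair of libraries differed by more than counting noise, with a mean chi-square of 16.5 to 40.0 per gene, and none was merged. With 3 libraries, an exact paired test of an order could not give a p below 0.25, and no test was made. The libraries did not match in every respect: replicate 1 held more reads of digestive organ genes (2988 CPM against 1082 and 975 CPM), replicate 2 more of heat shock genes (23.9% of reads against 12.2% and 14.7%), and replicate 3 more of malat1. Results that rest on these genes are given with the values of each library.

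Reads were concentrated in few genes. The 10 most read genes took 26.9%, 34.2% and 30.6% of the reads, and the 100 most read took 46.0%, 52.9% and 48.9%. The long noncoding nuclear RNA malat1 alone took 7.69%, 7.999% and 10.7%. It was followed by a gene without a symbol (ENSDARG00000080337) at 48518, 30988 and 40952 CPM, whose genome of origin, nuclear or mitochondrial, was not examined. Of the 20 most read genes, 9 encode chaperones and 5 are named as genes of the mitochondrial genome. The other 6 were malat1, the gene without a symbol, actb2 (6612 ± 615 CPM), which encodes cytoplasmic actin, the translation elongation factor gene eef1a1l1 (6308 ± 478 CPM), the ferritin heavy chain gene fthl27 (4185 ± 386 CPM), which stores iron, and SLC25A5 (4039 ± 149 CPM), a carrier of ADP and ATP across the inner mitochondrial membrane. These 4 protein-coding genes differed little between libraries, with an SD of log2(CPM + 1) of 0.13, 0.11, 0.13 and 0.05. With TMM scaling, which sets the bulk of the genes equal between libraries, these were 0.11, 0.15, 0.07 and 0.10.

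**Figure D1:**
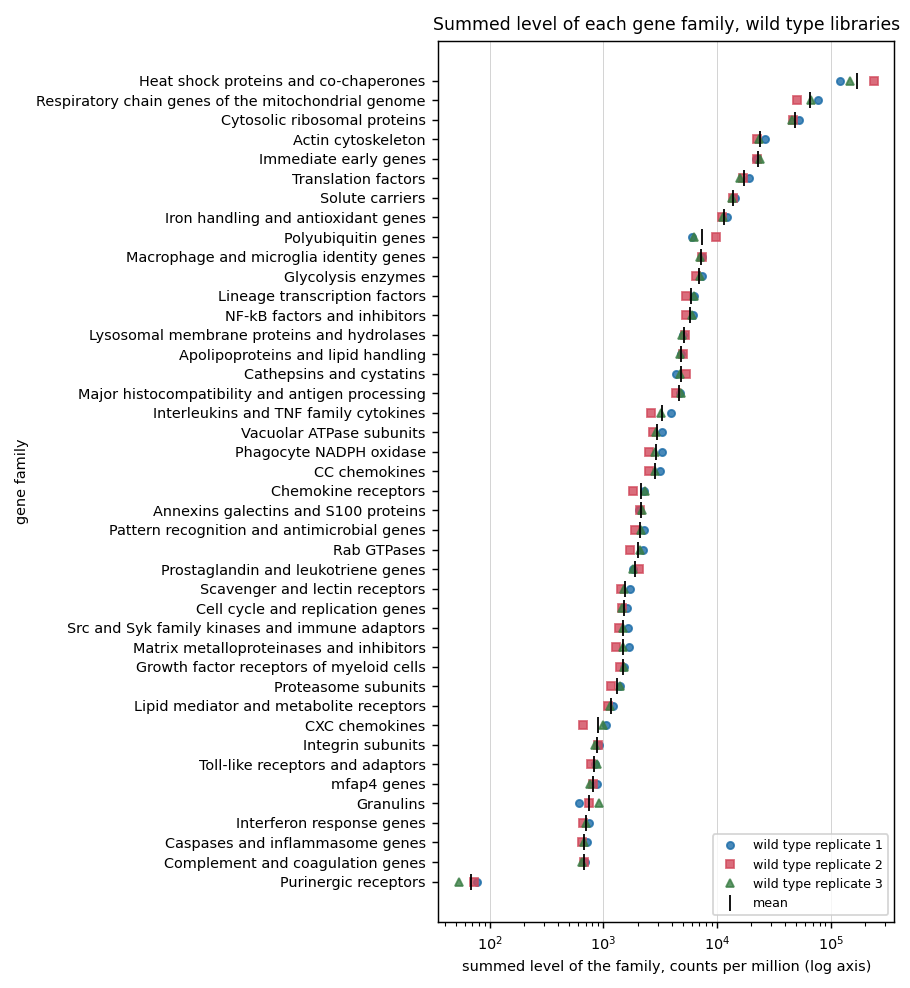
Summed level of each gene family other than marker lists of other cell types and lens crystallins, in CPM (log axis) in the 3 wild type libraries, with the mean as a bar. Heat shock proteins and co-chaperones lead in every library, at 122053, 239237 and 147173 CPM, and purinergic receptors are the lowest of those drawn.

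Most macrophage and microglia identity genes were detected in every library, beside markers of skin and other tissues that are described further on. Some of these identity genes, such as LCP1 and CORO1A, are leukocyte genes and not particular to macrophages. The list of macrophage and microglia identity genes matched 33 gene IDs, of which 31 were detected, and its sum was 7363, 7396 and 7113 CPM, that is 7291 ± 155 CPM. The members with a mean of at least 10 CPM had a median SD of log2(CPM + 1) of 0.16. It was 0.29 over all 7127 genes with such a mean, which were not matched for level. The spread falls with level, from 0.34 for genes of 10 to 30 CPM to 0.17 for genes of 300 CPM or more. With TMM the sum was 6844, 8124 and 6966, and the median SD was 0.20 against 0.27 over all genes. In replicate 2, 19 of 28 members were highest with TMM, beside 2394 of all 7127 genes. By CPM 6 members were, beside 1242 of all 7127 genes. The reporter is driven by the mpeg1 promoter, and 3 gene IDs are named MPEG1. Which of these IDs carries that promoter was not examined. The most read of them (ENSDARG00000055290) measured 305, 331 and 273 CPM (303 ± 29.0 CPM), the next (ENSDARG00000043093) 114, 111 and 95.2 CPM (107 ± 10.1 CPM), and the last (ENSDARG00000078569) 2.60, 2.62 and 3.37 CPM (2.86 ± 0.435 CPM). All 3 copies stood in the same order in every library without overlap.

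Apolipoprotein E gene apoeb, a lipid carrier gene that microglia express strongly, drew the most reads of the list, with 2025, 2364 and 2138 CPM (2176 ± 173 CPM). It was followed by LCP1 (903 ± 111 CPM), which encodes the leukocyte actin-bundling protein L-plastin, and by CORO1A (553 ± 49.98 CPM), an actin regulator of leukocytes. These 3 took 49.8% of the list's reads, and each was separated from the next. The myeloid transcription factor genes SPI1 (327, 295 and 363 CPM) and spi1a (341, 279 and 363 CPM) were read equally often within their spread, and so were both receptor genes for macrophage colony-stimulating factor, csf1ra (93.3, 121 and 125 CPM) and csf1rb (122.6, 112 and 101 CPM). For csf1ra and csf1rb the order turned between libraries, since replicate 1 had more csf1rb and replicates 2 and 3 more csf1ra. The leukocyte phosphatase gene ptprc (CD45) measured 285, 229 and 175 CPM and fell in the upper part of the spread for its level, with an SD of log2(CPM + 1) of 0.35.

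Other genes known from microglia ranged widely in reads. The transporter gene SLC7A7, needed for microglia in zebrafish, measured 167, 171 and 187 CPM. The receptor gene P2RY12, which marks resting microglia in mammals and in zebrafish, measured 10.5, 7.27 and 8.81 CPM (8.87 ± 1.63 CPM), and timd4, a phosphatidylserine receptor gene, 0.592, 1.91 and 3.69 CPM. The complement genes c1qc, c1qb and c1qa, products of tissue macrophages and microglia, measured 26.5 ± 3.49 CPM, 23.6 ± 4.31 CPM and 3.26 ± 1.86 CPM. The scavenger receptor gene marco, which marks macrophages in zebrafish larvae, measured 70.2, 60.1 and 43.1 CPM and the receptor kinase gene mertka, used in the uptake of dying cells, 15.03, 10.4 and 20.5 CPM. In a pooled library, a low level of such genes in all cells and a high level in few cells cannot be told apart, nor can fewer cells of a type and less RNA per cell.

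**Figure D2:**
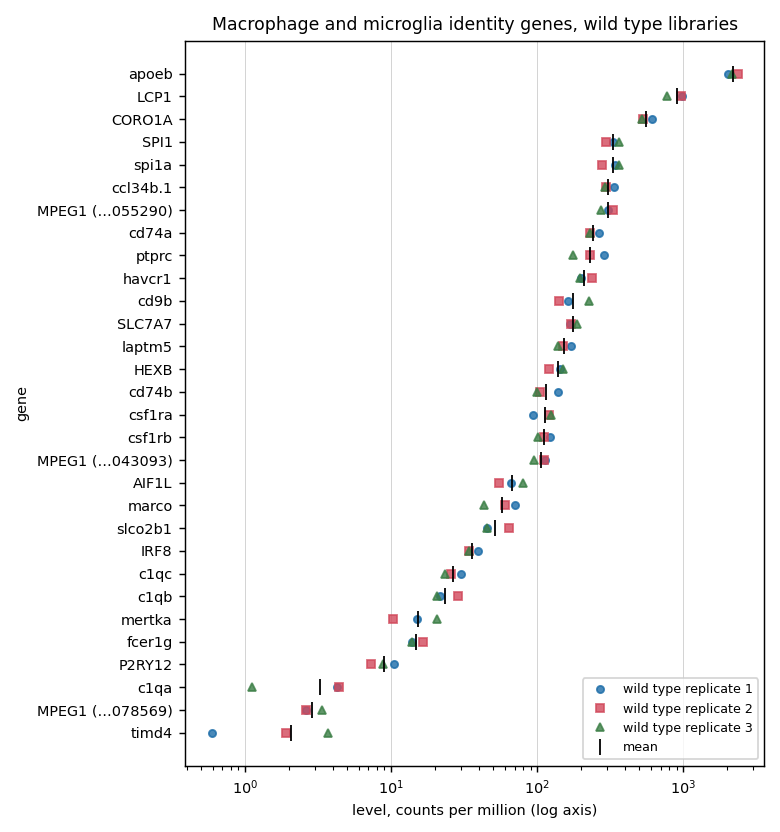
Levels of the macrophage and microglia identity genes with a mean of at least 1 CPM in the 3 wild type libraries (CPM, log axis), ordered by mean and without 2 genes not reported here. The levels run from apoeb at 2025, 2364 and 2138 CPM down to timd4 at 0.592, 1.91 and 3.69 CPM, where the libraries stand farthest apart.

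The mfap4 family, a tandem group of genes for secreted fibrinogen-domain proteins whose promoter is also used for macrophage reporters in zebrafish, had 13 IDs, all detected. Its sum was 872, 812 and 758 CPM. Most reads fell on 2 copies, ENSDARG00000088745 with 337, 356 and 312 CPM and ENSDARG00000090783 with 348, 287 and 297 CPM, whose order turned between libraries. The next copy (ENSDARG00000090557) measured 36.7 ± 1.195 CPM and was lower than both in every library. The counts of such near copies may be split by the counting, so that the order within the family is uncertain.

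Among lineage transcription factors, 40 of 45 genes were detected and CEBPB was read most, with 1995, 1559 and 1837 CPM (1797 ± 221 CPM). This factor drives inflammatory and differentiation programmes of myeloid cells. CEBPA, which commits progenitors to the myeloid lineage, measured 472 ± 39.7 CPM and TFEC, a macrophage member of the MiT family, 409 ± 43.4 CPM. CEBPB and CEBPA were each separated from the next gene. IRF8, which directs early myeloid cells to the macrophage fate, measured 39.2, 34.3 and 34.1 CPM (35.9 ± 2.85 CPM), IRF7 109 ± 29.4 CPM and IRF5 65.1 ± 9.82 CPM. Both genes named MAF stayed under 1 CPM in every library.

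Receptors for growth factors and cytokines were led by il10ra, a subunit of the receptor for the anti-inflammatory cytokine interleukin 10, with 426, 438 and 480.5 CPM (448 ± 28.7 CPM). The interleukin 6 receptor gene il6r came next with 138 ± 19.8 CPM and its signalling partner il6st measured 95.2 ± 27.0 CPM. The order from il6r to csf2rb (92.8 ± 14.6 CPM), the shared chain of several myeloid growth factor receptors, held no separated neighbours. Tumour necrosis factor receptor genes tnfrsf1b and tnfrsf1a measured 80.0 ± 10.25 CPM and 45.2 ± 1.56 CPM, and the interferon gamma receptor genes ifngr2 and ifngr1 73.2 ± 17.5 CPM and 58.4 ± 18.2 CPM. The receptor gene for granulocyte colony-stimulating factor, CSF3R, measured 33.8, 29.4 and 32.4 CPM. Genes for the stem cell factor receptor, KIT (1.16 ± 1.56 CPM) and kitb (1.48 ± 0.469 CPM), stayed under 3 CPM in every library.

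Chemokine receptors, which steer leukocytes along gradients, had 18 of 28 IDs detected, beside 13837 of all 31962 genes. Their sum was 2263, 1821 and 2314 CPM. CXCR4 (ENSDARG00000041959), which retains leukocytes at sources of CXCL12, drew 50.3% of these reads, with 1106, 925 and 1186 CPM (1072 ± 134 CPM). The second ID named CXCR4 (ENSDARG00000057633) measured 3.55, 3.93 and 3.37 CPM. CCR9 (ENSDARG00000055186), known from thymus homing of lymphocytes, measured 479, 359.7 and 489.9 CPM (443 ± 72.3 CPM). The gene ccr12b.2 followed with 158, 178 and 180.1 CPM and cxcr3.2 itself with 186, 128 and 162 CPM (159 ± 29.0 CPM), and these last 2 genes were not separated. Within the cxcr3 group, cxcr3.2 drew more reads than cxcr3.3, a paralog described in zebrafish as a scavenging receptor, in every library (72.1, 48.2 and 36.7 CPM). The remaining paralog, named CXCR3 (ENSDARG00000007358), measured 19.3, 12.04 and 11.2 CPM.

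The decoy receptor gene ACKR3 (ENSDARG00000058179) measured 85.2, 62.9 and 76.8 CPM and was separated from the genes on either side. The interleukin 8 receptor gene cxcr1, which neutrophils express, measured 26.3, 13.1 and 23.4 CPM, and ccr2, the receptor of inflammatory monocytes in mammals, 12.2, 8.34 and 12.3 CPM. CCR7, which guides dendritic cells to lymphoid tissue in mammals, had no count in replicates 1 and 2, where 3 counts would be 0.355 and 0.358 CPM, and measured 0.801 CPM in replicate 3.

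Toll-like receptors sense microbial molecules at the surface or in endosomes. Of 29 receptor and adaptor genes, 24 were detected, and the most read was IRAK3, an inhibitor of signalling downstream of these receptors, with 334, 350.4 and 344 CPM (343 ± 8.37 CPM). Its SD of log2(CPM + 1) of 0.04 was among the lowest for genes of its level by CPM, but was 0.16 with TMM scaling. The flagellin receptor genes tlr5b and tlr5a followed, with 126, 84.6 and 99.5 CPM for tlr5b and 64.7, 40.0 and 61.7 CPM for tlr5a. The former was higher than the latter in every library and separated from it. The adaptor genes MYD88 and ticam1 measured 44.8 ± 3.10 CPM and 39.2 ± 2.58 CPM. Of the endosomal receptors of nucleic acids, tlr8b measured 13.01, 10.1 and 9.14 CPM and tlr3 2.84, 1.31 and 3.37 CPM, whereas TLR7 stood at 0, 0 and 0.321 CPM and tlr9 had no count in any library. Among further receptors of the list, tlr22 measured 18.5, 11.6 and 23.9 CPM and tlr21 4.85, 4.05 and 7.85 CPM.

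Uptake receptors were led by cd68, a lysosome-associated glycoprotein gene used as a macrophage marker, with 641, 494 and 625 CPM (587 ± 80.5 CPM). The phosphatidylserine receptor gene havcr1 measured 198, 236 and 197 CPM and the endocytic adaptor gene DAB2 (ENSDARG00000053091) 263, 146 and 214 CPM, in an order that turned between libraries. The mannose receptor gene mrc1b measured 96.2, 132 and 69.7 CPM, and CD36, a receptor for oxidised lipids, 10.17, 7.51 and 3.05 CPM. In all, 17 of 24 matched genes of this list were detected.

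**Figure D3:**
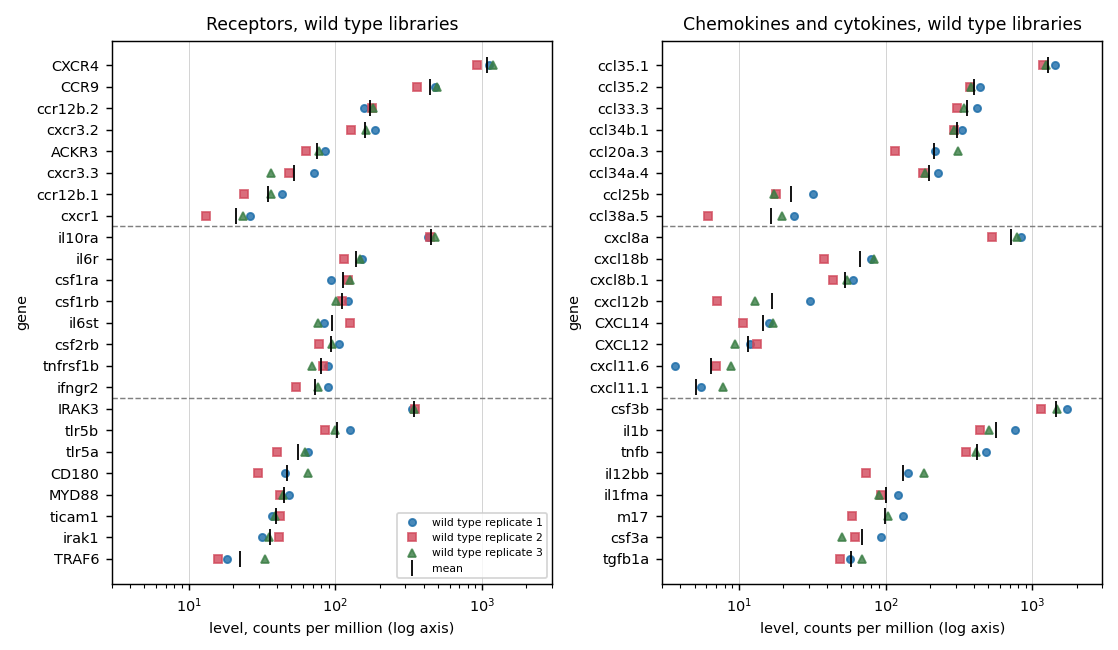
Levels in CPM (log axis) of the 8 most read members of each family in the 3 wild type libraries. Left, from the top, chemokine receptors, growth factor receptors and Toll-like receptors with adaptors; right, CC chemokines, CXC chemokines and other cytokines; CXCR4, il10ra and IRAK3 lead on the left, and ccl35.1, cxcl8a and csf3b on the right.

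Chemokine and cytokine transcripts were detected in all 3 libraries, and the labels name no stimulus. The CC chemokines, which attract mainly mononuclear leukocytes, had 17 of 33 genes detected, beside 13837 of all 31962 genes. Their sum was 3183, 2539 and 2834 CPM. The gene ccl35.1 drew 45.1% of these reads, with 1431, 1184 and 1239 CPM (1285 ± 129.7 CPM), and its neighbour in name, ccl35.2, 443, 374 and 385 CPM. The genes ccl33.3 and ccl34b.1 measured 358 ± 58.5 CPM and 306 ± 23.2 CPM. Most of these differed modestly between libraries, whereas ccl20a.3, related by name to the mammalian attractant of CCR6-bearing cells, measured 216, 116 and 309 CPM. Its SD of log2(CPM + 1) of 0.71 was in the top percentile of genes at its level. The level tail was long, and 4 genes of the family had no count in any library, beside 6508 of all 31962 genes.

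Among CXC chemokines, cxcl8a, the gene for the neutrophil attractant interleukin 8, drew 79.8% of the reads, with 837, 533 and 780.4 CPM (717 ± 162 CPM). The gene cxcl18b, induced in inflammation in zebrafish, measured 79.6, 38.0 and 83.2 CPM. The interleukin 8 paralog cxcl8b.1 measured 59.7, 43.9 and 55.0 CPM. The cxcl11 genes, which in zebrafish encode ligands of the receptor cxcr3.2, drew few reads: cxcl11.6 measured 3.67, 7.03 and 8.81 CPM, cxcl11.1 5.56, 2.03 and 7.85 CPM and cxcl11.7 3.19, 3.46 and 4.33 CPM. The other 4 cxcl11 genes measured stayed under 1 CPM in every library.

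Cytokine genes were led by csf3b, which encodes a granulocyte colony-stimulating factor, with 1728, 1139.5 and 1467 CPM (1445 ± 295 CPM), and it was separated from the next gene. The inflammatory cytokine gene il1b followed with 759, 438 and 508 CPM. Of both tumour necrosis factor genes, tnfb measured 486, 350.4 and 414 CPM and tnfa 55.6, 36.8 and 39.6 CPM (44.01 ± 10.1 CPM), so that tnfb drew more reads than tnfa in every library. The interleukin 12 subunit gene il12bb measured 141, 73.1 and 183 CPM, a wide spread for its level, and its partner gene il12a 16.7, 13.8 and 10.4 CPM. The inflammatory gene il6 measured 35.6, 24.0 and 14.9 CPM, and the anti-inflammatory gene IL10 0.592, 1.43 and 1.92 CPM. Interferon genes were near 0: ifnphi1, ifnphi2, ifnphi3 and ifng1 did not exceed 1.54 CPM in any library. The ligand gene of the csf1 receptor il34 measured 54.7, 27.2 and 43.9 CPM, and csf1a and csf1b stayed under 2 CPM. Of the 21 cytokine genes with a mean of at least 10 CPM, 14 were highest in replicate 1, where 47.8% of all genes of that level were highest.

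The effector genes of phagocytes were well represented. Of the NADPH oxidase, which makes superoxide in the phagosome, the cytosolic subunit gene NCF1 drew 1981, 1567 and 1773 CPM (1774 ± 207 CPM) and the membrane subunit genes cybb and cyba 305 ± 72.8 CPM and 222 ± 31.2 CPM. The cytosolic subunit gene NCF4 measured 50.6 ± 9.66 CPM, and rac2, the small GTPase that joins the active complex, 149.8 ± 9.75 CPM. The list of this family also holds the antioxidant enzyme genes SOD1 and CAT. Of its 11 members with a mean of at least 10 CPM, 9 were highest in replicate 1 by CPM, where 47.8% of all genes were. With TMM 6 of the 11 were, beside 2354 of all 7127 genes of that level. Of both genes named NOS2, for inducible nitric oxide synthase, ENSDARG00000026925 measured 0.710, 0.358 and 2.72 CPM and ENSDARG00000031976 had no count in any library.

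ACOD1, the gene for the enzyme that makes itaconate in activated macrophages, led the antimicrobial genes with 1287, 918 and 979 CPM (1062 ± 198 CPM). The g-type lysozyme gene lygl1 measured 239, 177 and 222 CPM and the peptidoglycan recognition gene pglyrp5 154, 139 and 142 CPM. The c-type lysozyme gene lyz, which larval neutrophils and macrophages express, measured 69.9, 41.7 and 214 CPM, and its SD of log2(CPM + 1) of 1.19 was among the largest of all genes at its level. Without replicate 3 its mean was 55.8 CPM. The sensor genes NOD1 and NOD2 measured 11.2 ± 4.60 CPM and 16.3 ± 9.44 CPM.

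Lysosomal proteases and their inhibitors drew more reads than the oxidase genes in every library. The cathepsins and cystatins summed to 4393, 5377 and 4762 CPM and 17 of 22 genes were detected. The cysteine protease gene ctsla measured 1002, 1235 and 1013 CPM (1084 ± 132 CPM) and the aspartic protease gene CTSD 709, 875 and 863 CPM (816 ± 92.7 CPM), and each was separated from the next gene. CTSZ, CTSK and CTSC followed at 433 ± 59.7 CPM, 418 ± 104 CPM and 409.9 ± 33.8 CPM, in an order that was not separated. Of 15 members with a mean of at least 10 CPM, 10 were highest in replicate 2, where 17.4% of all genes were.

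Of the genes of lysosomal membrane proteins and hydrolases, 44 of 47 were detected. The tetraspanin gene CD63, a marker of late endosomes, measured 1082, 936 and 972 CPM and PSAP, the precursor gene of the saposins that assist lipid breakdown, 790.1, 972 and 735 CPM. NPC2, which carries cholesterol inside the lysosome, measured 301, 283 and 285 CPM with an SD of log2(CPM + 1) of 0.05, or 0.09 with TMM. Of the vacuolar ATPase, the proton pump that acidifies the lysosome, 22 of 27 subunit genes were detected. Its membrane ring gene ATP6V0C led with 805, 623 and 703 CPM (710.3 ± 91.5 CPM), followed by ATP6V1B2 of the catalytic head (319 ± 40.5 CPM) and the accessory gene ATP6AP2 (287 ± 38.5 CPM).

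Matrix-degrading enzymes were led by MMP9, a gelatinase gene that both neutrophils and macrophages express, with 705, 381 and 633 CPM (573 ± 169.7 CPM). The sheddase gene adam10a measured 252, 187 and 213 CPM, the inhibitor gene TIMP2 (ENSDARG00000075261) 155, 221 and 138 CPM and the collagenase gene mmp13a 184, 161 and 148 CPM. Of 40 complement and coagulation genes, 16 were detected and 10 had no count in any library. Over all 31962 genes these counts were 13837 and 6508, so the shares were similar. The terminal component gene c7b measured 265, 205 and 225 CPM, the clotting factor XIII gene f13a1b 145, 187 and 138 CPM and properdin, cfp, 63.7, 89.6 and 56.9 CPM, each separated from the next.

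Integrins bind matrix and other cells, and 22 of 35 subunit genes were detected, beside 13837 of all 31962 genes. The most read were itgae.2 (139 ± 13.9 CPM) and itgb2 (112 ± 17.7 CPM), the shared beta chain of leukocyte integrins, each separated from the next gene. ITGAV and ITGA5, of the receptors for vitronectin and fibronectin, measured 93.6 ± 9.83 CPM and 86.6 ± 15.1 CPM. Kinases and adaptors of immune receptors were led, after ptprc, by the phosphatase gene PTPN6 (139, 158 and 159.6 CPM) and the adaptor gene lcp2a (127, 102 and 133 CPM). The Src family gene FGR measured 118 ± 12.8 CPM.

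Antigen presentation genes had 27 of 36 matched members detected. The class I gene mhc1zba measured 1627, 1751 and 1973 CPM (1784 ± 175 CPM) and b2ml, related by name to the light chain beta-2 microglobulin, 251, 231 and 229 CPM. The activation marker gene cd83 measured 683, 536 and 749 CPM. Of the invariant chain genes, which chaperone class II molecules, cd74a measured 265, 229 and 228 CPM and cd74b 138, 104 and 100.3 CPM, and cd74a was higher in every library. The listed class II genes mhc2a and mhc2b matched no ID by name and were not used here. Of 37 matched interferon response genes, 21 were detected, beside 13837 of all 31962 genes. Their sum was 755, 657 and 710 CPM. Leading members were SOCS3 (ENSDARG00000026611, 163 ± 18.3 CPM), a feedback inhibitor of cytokine signalling, and IRF7. The effector gene isg15 measured 10.9, 8.94 and 21.6 CPM and mxa 2.01, 0.596 and 5.93 CPM, and RSAD2 had no count in any library.

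Lipid handling was led by apoeb. Next by mean came the lipid droplet gene plin3 (471, 495 and 475 CPM) and the cholesterol exporter gene ABCA1 (ENSDARG00000074635, 332, 432 and 283 CPM). The lipid droplet gene PLIN2 measured 268, 304 and 363 CPM and the exporter gene abca1b 212, 215 and 139.9 CPM. Iron and antioxidant genes summed to 12264, 10987 and 11239.7 CPM. Ferritin heavy chain genes led them, with fthl27 at 4625, 3902 and 4028 CPM, fthl31 at 2559.9, 2144 and 2155 CPM and fthl28 at 871, 752 and 725 CPM, and each was separated from the next. The heme-degrading enzyme gene HMOX1 measured 532, 711 and 464 CPM and NFE2L2, the regulator of the antioxidant response, 542, 449 and 558 CPM.

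Glycolysis genes summed to 7436, 6511 and 7085 CPM, led by GAPDHS (1575 ± 58.3 CPM) and PKM (728 ± 112 CPM). The regulator gene PFKFB3 measured 425, 539 and 417 CPM and LDHA, which makes lactate, 577, 385 and 405 CPM. The 13 protein genes of the mitochondrial genome summed to 78194, 50757 and 67551 CPM, and replicate 2 was lowest for the sum. The cytochrome oxidase genes MT-CO1, MT-CO2 and MT-CO3 measured 21364 ± 4464 CPM, 13136 ± 3155 CPM and 9732 ± 2464 CPM, and MT-CO1 was separated from MT-CO2 and MT-CO2 from MT-CO3. The eicosanoid genes were led by PTGS2 (ENSDARG00000004539), the inducible cyclooxygenase, with 655, 886 and 703 CPM (748 ± 122 CPM). The prostacyclin synthase gene PTGIS measured 166, 304 and 181 CPM and LTA4H, which makes leukotriene B4, 218, 156 and 171 CPM.

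Genes of the actin cytoskeleton, which moves the cell and closes the phagocytic cup, summed to 26267, 22374 and 23641 CPM. After actb2, the most read were actb1 (3261 ± 309.7 CPM), the actin monomer binder genes pfn1 (3178 ± 216 CPM) and tmsb4x (1851 ± 165 CPM) and the Arp2/3 complex gene ARPC1B (1370.0 ± 115 CPM). Ribosomal protein genes summed to 53065, 46306 and 45551 CPM, and 86 of 87 were detected. The leading gene RPL3 took 4.401% of the family, and 9 of 85 neighbouring pairs were separated. Cell cycle and replication genes summed to 1624, 1446 and 1462 CPM, led by the tubulin gene tubb2b at 501, 459 and 496 CPM, which other cell functions use too. The replication clamp gene PCNA stood at 92.2, 68.9 and 53.4 CPM and the helicase gene MCM4 at 31.5, 41.4 and 32.2 CPM, beside the cell cycle inhibitor gene CDKN1B (ENSDARG00000054271) at 166, 124 and 178 CPM.

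Genes of the immediate early and stress responses drew many reads in every library. Immediate early genes, which are transcribed within minutes of a stimulus and are known to be induced by tissue dissociation, summed to 22172, 22678 and 23718 CPM, and 49 of 52 were detected. Their leading members were the antiproliferative gene BTG1 (2959, 3369 and 3096 CPM), nfkbiab (2061, 1806 and 1957 CPM), an inhibitor gene of NF-kB, and the phosphatase gene DUSP1 (1807, 1936 and 2067 CPM). JUN, a subunit of the AP-1 factor, measured 1506, 1721 and 1921 CPM, and both genes named JUNB measured 1548 ± 147 CPM (ENSDARG00000104773) and 1398 ± 104 CPM (ENSDARG00000074378). With TMM the sum was 20610, 24910 and 23230, so that the libraries stood farther apart than by CPM. The members of at least 10 CPM had a median SD of log2(CPM + 1) of 0.16. The part of tissue handling in these levels, and in the cytokine levels above, was not tested.

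Heat shock proteins and their co-chaperones, which refold damaged proteins, took 12.2%, 23.9% and 14.7% of all reads. The 4 hsp70 genes HSPA2, hsp70.3, hsp70l and hsp70.1 together measured 78701, 173364 and 101401 CPM. They measured 32191 ± 13715 CPM, 29722 ± 12506 CPM, 29159.5 ± 12161 CPM and 26749.7 ± 11046 CPM on their own, which is uncertain, as they are near copies whose reads the counting may split. The inducible gene HSP90AA1 measured 10259, 20664 and 11830.3 CPM, also highest in replicate 2, and 9536, 22698 and 11587 with TMM. The constitutive gene HSPA8 was highest in replicate 2 by a smaller margin. It measured 9043, 9770.2 and 8539 CPM, and 8405, 10732 and 8363 with TMM. HSP90AB1, the constitutive counterpart of HSP90AA1, measured 3644, 3920.0 and 3114 CPM, and 3388, 4306 and 3049 with TMM. A second ID named HSPA8 (ENSDARG00000037403) measured 23.3, 78.5 and 41.3 CPM and was highest in replicate 2. Both polyubiquitin genes named ubb had the same pattern as HSP90AA1, with 2475, 4663 and 2729 CPM for ENSDARG00000093313 and 2231, 4144 and 2473 CPM for ENSDARG00000002369. HSPA5, the chaperone gene of the endoplasmic reticulum, measured 4832, 7543 and 5025 CPM. Of the 63 members with a mean of at least 10 CPM, 37 were highest in replicate 2, against the 17.4% of all genes.

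A large share taken by few genes lowers the CPM of all others in a library. With TMM scaling the 7127 genes of at least 10 CPM were highest in replicates 1, 2 and 3 in 2354, 2394 and 2379 cases, against 3405, 1242 and 2480 by CPM. Of 85 ribosomal protein genes, 79 were highest in replicate 1 by CPM, but the counts for replicates 1, 2 and 3 were 28, 55 and 2 with TMM, so that the leading replicate turned with the scaling. It also turned for the immediate early genes, whose highest replicates were 16, 11 and 21 by CPM and 8, 27 and 13 with TMM. The heat shock genes kept replicate 2 as the most frequent highest library (9, 41 and 13 with TMM), and no mitochondrial gene was highest in replicate 2 on either scale.

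Markers of other cell types were present in all 3 libraries. Epidermal and ionocyte markers had 33 of 35 genes detected. Their sum was 10921, 9520.2 and 11601 CPM, and 7618, 6591 and 8298 CPM without pfn1, which leukocytes express too. The keratin gene krt4 of the outer skin layer measured 1559, 1108 and 1543 CPM. The keratin gene krt5, of the basal layer, measured 637, 837 and 970.3 CPM, and krt8 727, 758 and 660.3 CPM. The epithelial adhesion gene epcam measured 688, 524 and 757 CPM. Each of these 4 genes drew more reads than the most read MPEG1 copy in every library. The source of these reads was not tested.

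Neutrophil markers summed to 2125, 1604 and 2203 CPM, of which MMP9 made up 29.0%. The sum also holds srgn (455, 323 and 387 CPM) and the genes mmp13a and il6r described above under other families. More specific members were lower than MMP9, with npsn at 112, 54.5 and 129.7 CPM and cfl1l at 81.6, 71.9 and 99.8 CPM. Also lower were CSF3R, as given above, and nccrp1 at 134, 136 and 132 CPM. The gene scpp8 measured 109, 218 and 187 CPM. Of the 12 members with a mean of at least 10 CPM, 6, 2 and 4 were highest in replicates 1, 2 and 3, against 47.8%, 17.4% and 34.8% of all genes. The myeloperoxidase gene mpx of the list matched no ID by name, but it may be counted under another symbol, such as those of the peroxidase IDs that follow. The ID named EPX (ENSDARG00000019521), a peroxidase gene of granulocytes, measured 131, 79.1 and 149.9 CPM. Another ID named epx (ENSDARG00000012535) measured 2.48, 1.19 and 3.69 CPM.

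Digestive organ markers differed most between libraries among the marker lists, with a median SD of log2(CPM + 1) of 0.91. Their sum was 2988, 1082 and 975 CPM, and 19 of 20 members with a mean of at least 10 CPM were highest in replicate 1, against the 47.8% of all genes. The trypsin gene prss1 measured 546, 159 and 139.8 CPM and prss59.2 504, 195 and 118 CPM, and the pancreatic carboxypeptidase gene CPB1 359, 89.4 and 75.0 CPM. Without replicate 1 the mean of CPB1 was 82.2 CPM in place of 175 CPM, the means of prss1 and prss59.2 were 149 and 157 CPM, and the mean of the list's sum was 1028 CPM in place of 1682 CPM.

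Fibroblast, cartilage and bone markers summed to 1178, 1222 and 1498 CPM. Of their 23 members with a mean of at least 10 CPM, 13 were highest in replicate 3, where 34.8% of all genes were. The cartilage matrix gene MATN1 measured 20.3, 30.6 and 111 CPM, with a mean of 25.5 CPM without replicate 3, whereas the collagen gene col1a1a measured 214, 197 and 214 CPM and did not differ in this way.

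Lists of lymphocyte, erythrocyte, muscle, endothelial, pigment cell and lens genes had lower sums. Of 19 lymphocyte and thymus IDs, 5 were detected. RAG1, which recombines antigen receptor genes, measured 20.3, 15.7 and 2.24 CPM, with its lowest value in replicate 3, and the interleukin 7 receptor gene il7r 15.6, 9.06 and 12.2 CPM. Several other defining genes were at or near 0. RAG2 measured 0, 2.15 and 0.160 CPM, PAX5 0, 0.238 and 0 CPM and cd79b 0.828, 0 and 0 CPM. The gene cd8a measured 0.118, 0 and 0 CPM and lck 0.355, 0 and 1.44 CPM, and foxp3a had no count in any library. Low counts in every library were found for cd79a (1.06, 1.79 and 1.28 CPM), which was detected, and ighm (2.13, 0.715 and 0.481 CPM). That list summed to 540.2, 405 and 538 CPM, most of it CCR9, and to 40.8, 30.5 and 19.6 CPM without CCR9 and IKZF1. Both were left out on the assumption that macrophages express them too, which was not tested. Erythrocyte markers summed to 261, 144 and 209 CPM, with the globin gene hbae3 at 104, 60.3 and 85.6 CPM. Muscle markers summed to 183, 174 and 168 CPM over 32 genes and endothelial markers to 220.2, 163 and 173 CPM over 23. Without its most read member, which is also listed among the uptake receptors, the endothelial sum was 182, 122 and 139 CPM. Pigment cell markers other than csf1ra, which macrophages and yellow pigment cells share, summed to 50.3, 40.9 and 49.8 CPM. None of the 52 lens crystallin genes was detected, and 25 had no count in any library. Over all 31962 genes these counts were 13837 and 6508.

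Neural and retinal markers summed to 4345, 4056 and 4305 CPM over 53 genes. The genes marcksl1b (3285, 3124 and 3303 CPM) and marcksl1a made up most of it, and they encode actin-binding substrates of protein kinase C that are also used in leukocytes. Without both the sum was 536, 471 and 459 CPM. The myelin gene mbpa measured 90.7, 55.5 and 80.1 CPM.

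**Figure D4:**
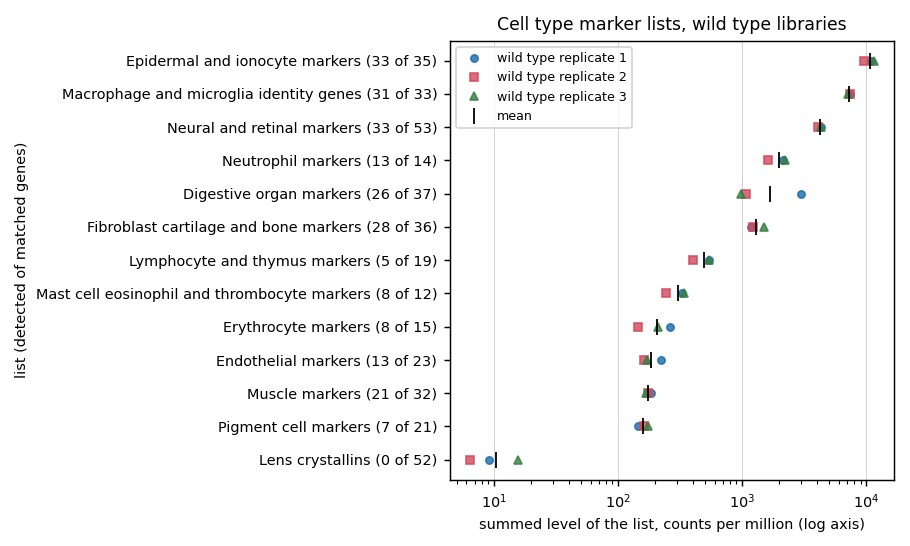
Summed level of each cell type marker list in CPM (log axis) in the 3 wild type libraries, with the number of detected genes beside the number matched. Digestive organ markers stand apart in replicate 1 (2988 against 1082 and 975 CPM), and lens crystallins are lowest.

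The spread between the 3 libraries narrowed with the number of reads. Over the 7127 genes with a mean of at least 10 CPM, the median SD of log2(CPM + 1) was 0.29, with a 10th percentile of 0.11 and a 90th percentile of 0.61. It fell with level, from 0.34 for genes of 10 to 30 CPM to 0.17 for genes of 300 CPM or more. A difference of at least 2-fold between the highest and lowest library was found for 1324 genes, 18.6%. The common biological coefficient of variation, estimated with edgeR from 13373 genes, was 0.315.

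Among 2089 named genes with a mean of at least 50 CPM, 10 of the 12 most variable were pancreatic enzyme genes, all highest in replicate 1. The largest SD of log2(CPM + 1) was that of CEL (1.26), a bile salt-activated lipase gene, with 114, 27.8 and 22.1 CPM. The other two were MATN1 and lyz, both highest in replicate 3. Without the replicate in which each stood highest, the means were 24.9 CPM for CEL, 25.5 CPM for MATN1 and 55.8 CPM for lyz. With TMM the same 12 genes were the most variable. The 12 least variable genes depended on the scale, since none of those by CPM was among the 12 by TMM. BAX, which promotes apoptosis, measured 58.4, 58.5 and 58.7 CPM but 54.3, 64.3 and 57.5 with TMM. PLEK, a protein kinase C substrate gene of blood cells, measured 191, 189 and 192 CPM but 178, 208 and 188 with TMM. The SD of these 12 genes with TMM was 0.11 to 0.14.

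**Figure D5:**
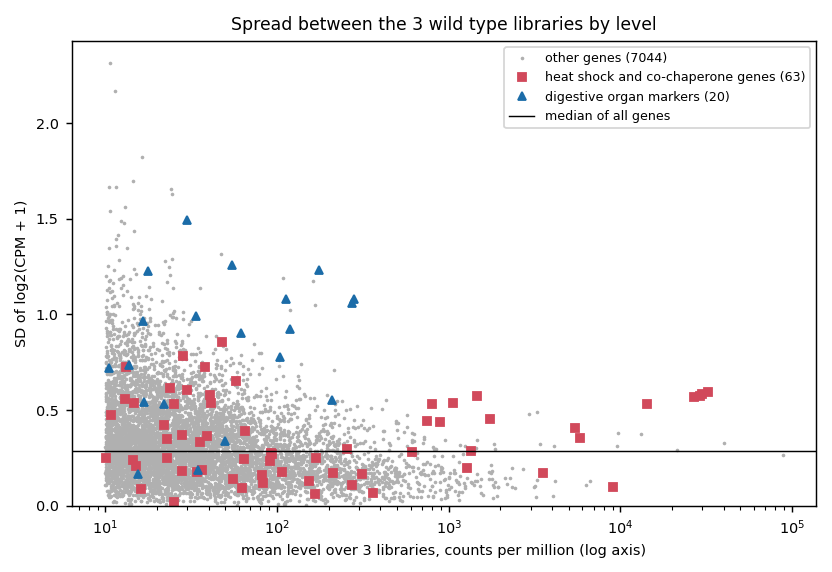
SD of log2(CPM + 1) over the 3 wild type libraries against mean level (CPM, log axis) for the 7127 genes with a mean of at least 10 CPM, with the median of 0.29 as a line. Digestive organ markers (triangles) stand mostly above the line, and the 4 hsp70 genes and HSP90AA1 among the heat shock genes (squares) lie above most genes of their level.

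Few neighbours within families were separated under the rule used here, which asks for a gap of means above the larger SD. Genes that kept their order in all 3 libraries can fail it, as HSPA2 and hsp70.3 did. Over 54 families and lists, 278 of 1564 neighbouring pairs of detected members (17.8%) were separated. The respiratory genes of the mitochondrial genome had 8 of 12 pairs separated and the cathepsins 9 of 16, while the lysosomal genes had 5 of 43 and the muscle markers 1 of 20.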

How the data were processed

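The authors deposited raw read counts per Ensembl gene for each library, 31962 genes, without normalization. Alignment was to GRCz10, per the labels' protocols, with Bowtie and TopHat, per the submitters' processing notes, which give no versions. How reads were counted (tool, strand, multimapping, annotation) is not given in the sources used here. Amplification without molecular identifiers adds noise, and floors of 3 counts cover counting error only. All rows used carry a gene ID, and 1 blank line was passed over. The 3 mutant files were not used.

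Symbols came from a table that named 26121 of the 31962 IDs. CPM was computed on the total of all genes with Python 3.11.15 and pandas 2.3.3. The biological coefficient of variation came from edgeR 4.0.16 in R 4.3.3 with no group term, on the genes that filterByExpr kept with a minimum count of 10 and a minimum total of 15. TMM factors (edgeR) and DESeq2 1.42.0 size factors were alternatives, as were other filters, pseudocounts, totals without heat shock genes, and leaving out each library. Scripts were tested on simulated data. Transcript lengths of the files' build were not used here, so that an intended order per kilobase was replaced by the order of CPM.

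The members and gene lists were chosen with earlier results of these data known. Names in a list were matched regardless of case and then without paralog suffix, and names matching more than 3 IDs were dropped. The genes named are the 20 most read, up to 6 leading members of each family, defining markers at or near 0, the 12 most and 12 least variable genes of at least 50 CPM, cxcr3.2 and genes named MPEG1. Some of these genes are not reported here. Members below the leading 6 were chosen after their values were seen. The labels call the pools of larvae independent and give no date or batch.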

Additional observations from a re-analysis of the deposited data

How the results depend on the processing

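No paired test of an order and no test between groups was made. The number of detected genes, 13837, stayed within 1.5 times under every alternative tried, from 13104 with at least 10 counts in each library to 19228 with at least 1 count in each, and was 14578 to 14836 with a library left out. The share of the 10 leading genes was 28.8% to 32.4% with a library left out, and 341 to 388 neighbouring pairs were separated, against 278. The median SD of log2(CPM + 1), 0.29, was 0.27 with TMM, 0.27 with DESeq2 size factors, 0.28 with totals without heat shock genes (genes of at least 10 CPM on each scale), 0.30 with a pseudocount of 0.1, 0.34 with no filter on the mean, 0.19 for genes of at least 100 CPM and 0.21 to 0.26 with a library left out. The common biological coefficient of variation, 0.315, was 0.304 with TMM, 0.304 with DESeq2 size factors, 0.505 with no filter and 0.298 to 0.326 with a library left out. Low counts were let in by the setting without a filter. Leaving out a library asks for agreement in fewer libraries, which makes the rules for detected genes and separated pairs easier to meet. An SD over fewer values also has a lower median. The shifts of these 3 results with a library left out therefore do not measure how stable they are. Totals without heat shock genes raised the level of the named genes by a median of 1.205 times, and 206 of 326 moved by more than 1 SD. With TMM 2 of 326 did. No named gene moved by over 1.5 times with either, but neither setting could move a mean that far. The TMM factors were 1.08, 0.910 and 1.02, and heat shock genes took at most 23.9% of the reads of a library. Leaving out replicate 1 moved 13 named genes by over 1.5 times, mostly pancreatic enzyme genes, replicate 2 moved 1 (p2rx7, to 9.09 CPM) and replicate 3 moved 6, among them MATN1 (to 25.5 CPM) and lyz (to 55.8 CPM). Genes under about 1 CPM rest on few counts.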

Other observations

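Regulators of NF-kB, the transcription factor of inflammatory genes, were widely read, and 29 of 32 were detected. Inhibitors were among the most read: nfkbiab took 33.4% of the family, nfkbiaa measured 505, 388 and 444 CPM, and ZC3H12A, a nuclease gene that degrades cytokine transcripts, 528, 477 and 589 CPM. The factor genes REL, relb and nfkb2 measured 478 ± 62.7 CPM, 377 ± 37.5 CPM and 261 ± 39.7 CPM. Other factor genes of the list drew few reads, with RELA at 9.58, 4.29 and 7.53 CPM and nfkb1 at 6.03, 5.48 and 10.3 CPM. NFKBIZ, whose product acts on selected inflammatory genes in the nucleus, measured 169, 251 and 256 CPM and was lowest in replicate 1. Caspases and inflammasome genes were low, led by gsdmea (167, 126 and 85.3 CPM), a gasdermin gene, while the inflammasome adaptor gene pycard measured 39.4, 37.3 and 28.7 CPM and casp8 31.2, 31.1 and 28.7 CPM.

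Receptors for lipid mediators and metabolites were led by CMKLR1 (268, 287 and 254 CPM), a receptor gene for chemerin, and GPR84 (307, 247 and 251 CPM), a receptor gene for medium-chain fatty acids, which were not separated from each other. The leukotriene receptor gene LTB4R measured 122.8, 116 and 113 CPM. Purinergic receptor genes were low, with the extracellular ATP receptor gene p2rx7 at 11.1, 24.9 and 7.05 CPM and a mean of 9.09 CPM without replicate 2. Of 428 solute carrier genes, 227 were detected, beside 13837 of all 31962 genes. After SLC25A5 the most read were slc25a55a (1159, 1152 and 1117 CPM), SLC38A2 (939, 1158 and 953 CPM), an amino acid transporter gene, and the zinc exporter gene SLC30A1 (568, 479 and 455 CPM). The granulin genes, lysosomal growth factors of myeloid cells, were all detected, and grna.2 (299, 299.5 and 494 CPM) and grna.1 (115, 149 and 205 CPM) were highest in replicate 3 while grna (165, 268 and 190.2 CPM) was highest in replicate 2. Among small GTPases of vesicle traffic, RAB5C (211, 172 and 191 CPM) and RAB2A (186, 166 and 199.9 CPM) led and were not separated. Of annexin, galectin and S100 genes, ANXA11 (288, 276 and 279 CPM for ENSDARG00000077383) drew the most reads and had an SD of log2(CPM + 1) of 0.03, or 0.10 with TMM.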
